A study of Mus musculus with 35 samples.

Results

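Polycomb repressive complex 2 (PRC2) was described by the RNA of its 10 subunit genes, Ezh1, Ezh2, Eed, Suz12, Rbbp4, Rbbp7, Jarid2, Mtf2, Phf19 and Aebp2, chosen by symbol from the 26127 rows of a gene expression table. All 10 were found, and all 10 passed the filter on low values (RPKM, reads per kilobase of exon per mega-read, above 1 in at least 2 libraries), as did 11615 genes in all. The libraries were total RNA depleted of ribosomal RNA from mouse embryonic stem cells (ESCs) grown in serum with leukemia inhibitory factor. The labels give E14 as the strain, while the study's methods describe C57BL/6 cells in which both Dnmt1 alleles are flanked by loxP sites, so that Cre induced with 4-hydroxytamoxifen deletes the gene. There were 17 control (WT) and 17 Dnmt1 knockout (KO) libraries from days 0, 1, 3, 6, 9, 11, 17 and 25, with 2 libraries for each genotype and day and 3 at day 1. A single further library came from Dicer KO cells, which the methods derive by genome editing of the same loxP line from colonies of single cells. The cultures behind the replicates are not named, so p-values measure the spread between these libraries, which may be technical.

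PRC2 methylates histone H3 on lysine 27, a mark that keeps developmental genes silent in ESCs. EZH2 or its paralog EZH1 carries the catalytic domain, and EED and SUZ12 are needed for activity and stability. RBBP4 and RBBP7 are histone chaperones that also serve in other chromatin complexes. Accessory subunits divide the complex into PRC2.1, with a Polycomb-like protein such as MTF2 or PHF19, and PRC2.2, with JARID2 and AEBP2. PRC2 binds CpG islands, and dense DNA methylation is known to keep it away from them. Dnmt1 encodes the DNA methyltransferase that copies methylation after replication.

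All 10 members start in CpG-rich sequence. In RefSeq promoters of GRCm38.p6 (250 bases before to 50 after a start), each member had a promoter with at least 15 CpG dinucleotides. This density was reached by 34.6% of 32851 promoters, counted singly and not by gene. The members had 14 promoters, and another one of Mtf2 had 2 CpG, while further ones of Aebp2 had 4 each. Suz12 had 41, Rbbp4 39, and Phf19 and Rbbp7 38 each, against a median of 7 over all promoters. The promoters of Ezh2, Suz12 and Phf19 are shown because these genes carry the largest late changes of the catalytic, core and accessory members, and because they are the 3 members with a match to an E2F word, a site of factors that drive genes of the cell cycle. The words TTTCCCGC, TTTCGCGC, TTTGCCGC and TTTGGCGC were searched on both strands and are in capitals. They occur in 2.26% of all promoters and in 4.97% of those with at least 15 CpG, and a match describes the letters only.
Ezh2, chr6:47594981-47595280, minus strand: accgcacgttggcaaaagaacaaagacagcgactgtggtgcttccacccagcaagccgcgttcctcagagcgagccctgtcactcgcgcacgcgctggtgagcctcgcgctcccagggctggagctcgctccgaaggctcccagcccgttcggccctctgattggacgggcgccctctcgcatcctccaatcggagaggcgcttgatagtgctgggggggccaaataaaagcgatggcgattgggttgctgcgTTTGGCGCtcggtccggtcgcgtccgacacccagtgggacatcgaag
Suz12, chr11:79992856-79993155, plus strand: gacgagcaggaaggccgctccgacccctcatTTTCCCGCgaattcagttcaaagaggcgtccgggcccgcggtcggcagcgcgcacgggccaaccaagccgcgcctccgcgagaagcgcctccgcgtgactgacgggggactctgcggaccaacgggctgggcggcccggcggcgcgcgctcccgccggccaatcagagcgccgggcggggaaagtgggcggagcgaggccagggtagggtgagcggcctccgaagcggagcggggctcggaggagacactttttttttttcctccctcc
Phf19, chr2:34913927-34914226, minus strand: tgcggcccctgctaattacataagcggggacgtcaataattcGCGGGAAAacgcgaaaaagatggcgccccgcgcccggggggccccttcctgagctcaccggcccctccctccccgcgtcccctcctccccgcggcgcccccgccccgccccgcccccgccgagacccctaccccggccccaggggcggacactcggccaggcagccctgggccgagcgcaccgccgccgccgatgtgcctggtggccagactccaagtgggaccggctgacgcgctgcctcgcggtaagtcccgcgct
The match begins 3 bases after the start in Ezh2, 219 bases before it in Suz12 and 208 bases before it in Phf19.

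The libraries held 5.21 to 18.0 mega-reads in exons and fell into 2 sets by the share of reads in exons. This share was 20.7% to 22.4% in 20 libraries (days 0, 3, 6 and 9 and the first 2 of each genotype at day 1) and 44.8% to 49.95% in 15 (the third of each genotype at day 1, days 11, 17 and 25, and Dicer KO). Within the second set it was 44.8% and 45.2% in WT of day 25 and 49.95% and 49.5% in KO of day 25. Genotype and exon share thus cannot be told apart at that day. In the third WT library of day 1 the members differed from the other WT libraries of that day by -0.14 (Ezh1) to 2.29 (Eed) on the log2 scale, at a median of 1.01 over all genes. Levels were therefore compared across days only within a set, and across the sets day and set cannot be told apart. At day 0 Dnmt1 RNA had 18.3 and 18.4 RPKM in WT and 18.5 and 18.7 RPKM in KO. The KO libraries of that day thus showed no loss. Dnmt1 RNA followed the labels at days 1, 3, 9, 11, 17 and 25, with log2 differences between KO and WT of -1.97 to -2.95. At day 6 it was 2.58, against the labels of all 4 libraries, which are called the libraries labelled KO and labelled WT. The KO libraries of day 11 differed from each other more than the other pairs of replicates that lacked the third day 1 libraries (chi-square per degree of freedom 50.9, against 1.40 to 16.3 in 15 pairs). Of these 15, pairs of days 0 to 9 had 1.40 to 2.31 and pairs of days 11, 17 and 25 had 3.30 to 16.3. The tests below share 1 estimate of the spread per gene over all days, which does not follow this difference. None of 10 ESC markers stayed below 1 RPKM in all libraries of any WT or Dnmt1 KO group, while 1 did in the Dicer KO library.

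**Figure D1:**
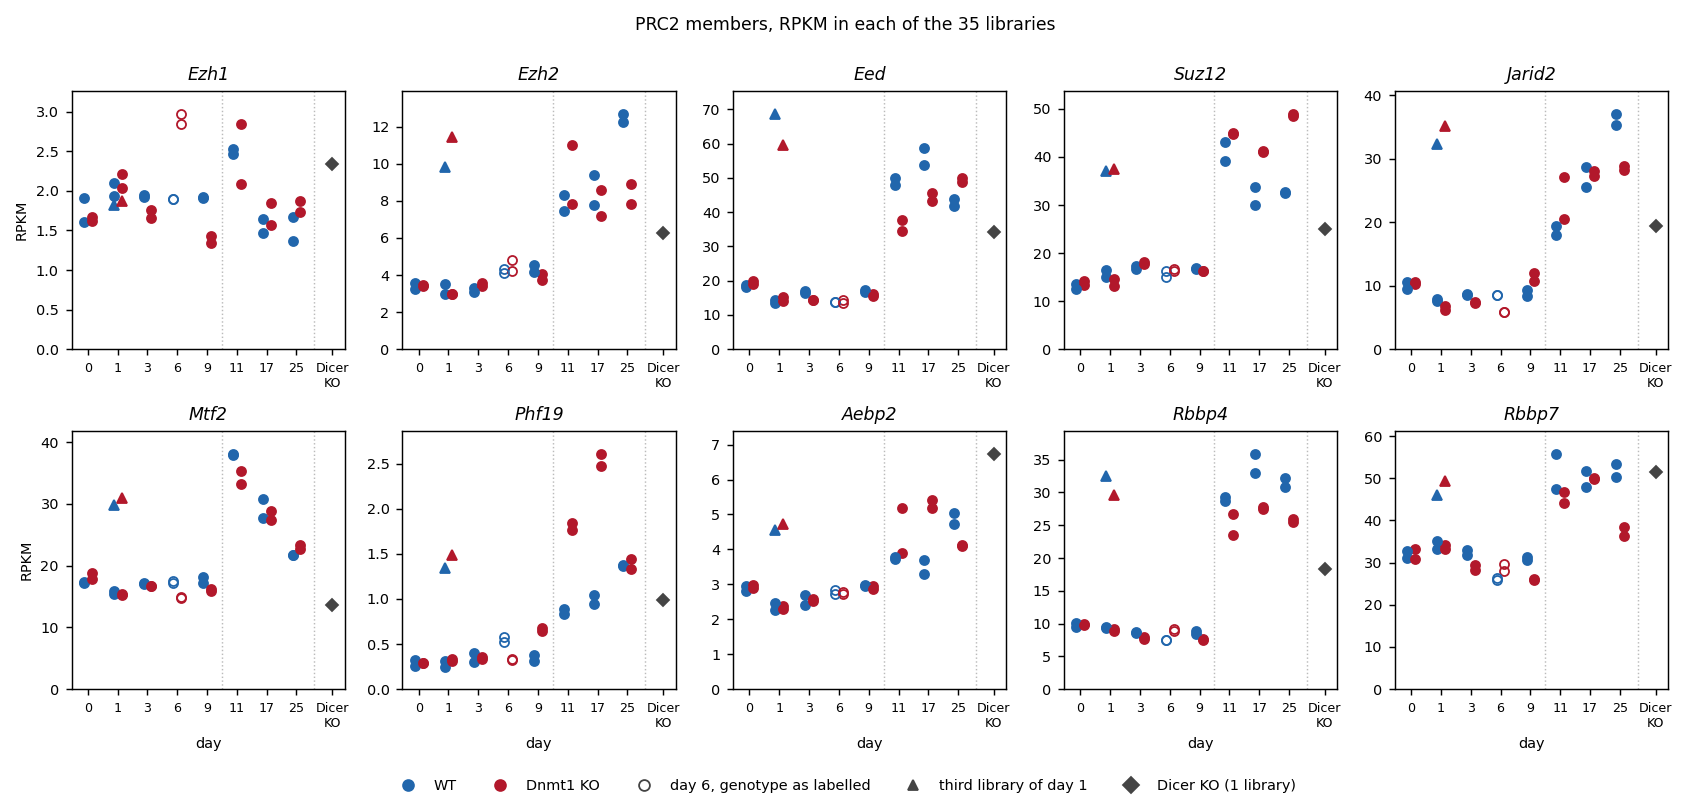
RPKM of each PRC2 member (vertical axes, from 0) in each of the 35 libraries by day (horizontal axes), with WT in blue, Dnmt1 KO in red and the Dicer KO library as a diamond. Open circles are day 6 as labelled, triangles the third libraries of day 1, and dotted lines separate days of low exon share, days of high exon share and Dicer KO; Phf19 at day 17 has 0.939 and 1.05 RPKM in WT and 2.47 and 2.61 RPKM in KO.

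The members spanned a wide range of levels per length. In WT cells of day 9 mean RPKM was 30.9 for Rbbp7, 17.7 for Mtf2, 16.9 for Eed, 16.8 for Suz12, 8.91 for Jarid2, 8.62 for Rbbp4, 4.36 for Ezh2, 2.96 for Aebp2, 1.92 for Ezh1 and 0.345 for Phf19. Only Eed with Suz12 and Jarid2 with Rbbp4 overlapped among neighbours in this order. Ezh2 was thus above Ezh1 but below the core genes Eed and Suz12. In WT cells of day 25 the order was Rbbp7 (51.9), Eed (42.7), Jarid2 (36.2), Suz12 (32.6), Rbbp4 (31.6), Mtf2 (21.7), Ezh2 (12.48), Aebp2 (4.89), Ezh1 (1.52) and Phf19 (1.38), with overlap only of the last pair. In KO cells of day 25 Eed (49.3) and Suz12 (48.7), which overlapped, stood above Rbbp7 (37.3). Phf19 rested on 38 to 406 reads in a library, and every other member on at least 277.

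The main comparison asked whether PRC2 RNA differed after Dnmt1 deletion. Tests were limma fits over all 34 WT and KO libraries on log2(RPKM + 0.1), with Benjamini-Hochberg adjustment over all 11615 genes, and a gene with an adjusted p below 0.05 is said to have risen or fallen in KO. At day 0, where Dnmt1 RNA was not lower in KO, limma called no member and no other gene (0%). There 242 genes had an unadjusted p below 0.05, and limma voom also called 0. At day 1 no member rose or fell, against 0.121% and 0.0258% of all genes. At day 3 none rose and Eed fell, against 7.40% of all genes that rose and 3.81% that fell. From day 9 on members were called in both directions. At day 9 2 members rose and 3 fell, against 16.7% and 10.5% of all genes, and at day 11 3 rose and 4 fell, against 22.7% and 12.3%. At day 17 3 rose and 2 fell, against 28.9% and 11.4%, and at day 25 2 rose and 5 fell, against 39.4% and 25.9%, so that the members called at days 17 and 25 were close in number to the share of all genes. Of all genes called, 61.4% were higher in KO at day 9, 64.8% at day 11, 71.8% at day 17 and 60.3% at day 25. With libraries centred on their medians these shares were 49.7%, 41.9%, 40.6% and 60.3%, with 2, 1, 3 and 2 members higher and 4, 4, 5 and 5 lower, and with limma voom on recovered reads the share at day 25 was 47.6%, with 1 member higher and 5 lower. In the mean of days 3, 9, 11, 17 and 25 3 rose (Suz12, Phf19 and Aebp2) and 4 fell (Eed, Mtf2, Rbbp4 and Rbbp7), against 37.4% and 20.4%. Of these Mtf2 was lost in 24 of the fits that left out a library and under 2 other settings. Aebp2 was lost without the second WT library of day 3 and under 3 other settings. The fit without the term described below is not among these settings. The median log2 difference of the members was -0.11 at day 9, 0.02 at day 17 and -0.12 at day 25, beside 0.02, 0.09 and 0.13 over all genes. The libraries of KO and WT overlapped for 8 members at day 0, 10 at day 1, 2 at day 3, 4 at day 6, 1 at day 9, 2 at day 11, 5 at day 17 and 1 at day 25, while 37.6%, 2.30%, 63.5%, 69.6%, 71.9%, 52.1%, 64.6% and 82.8% of all genes did not overlap at these days. The summed RPKM of the 10 members at day 25 was 235.8 to 238.1 in WT and 226.2 to 230.6 in KO.

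These calls rest on a term for the third pair of day 1 libraries, which keeps their shift out of the estimated spread. Without it 1 of the 30 calls of members at single days was left (Ezh1 at day 6), and the smallest adjusted p at other days was 0.0743 (Rbbp7 at day 25). With that pair left out, all 30 held. Of the 30, 14 also held with each library left out in turn and under every other setting. They were Phf19 at days 9 and 17, Eed, Suz12, Aebp2 and Rbbp4 at day 17, Ezh2, Suz12, Rbbp4 and Rbbp7 at day 25, and 4 at day 6 as labelled.

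**Figure D2:**
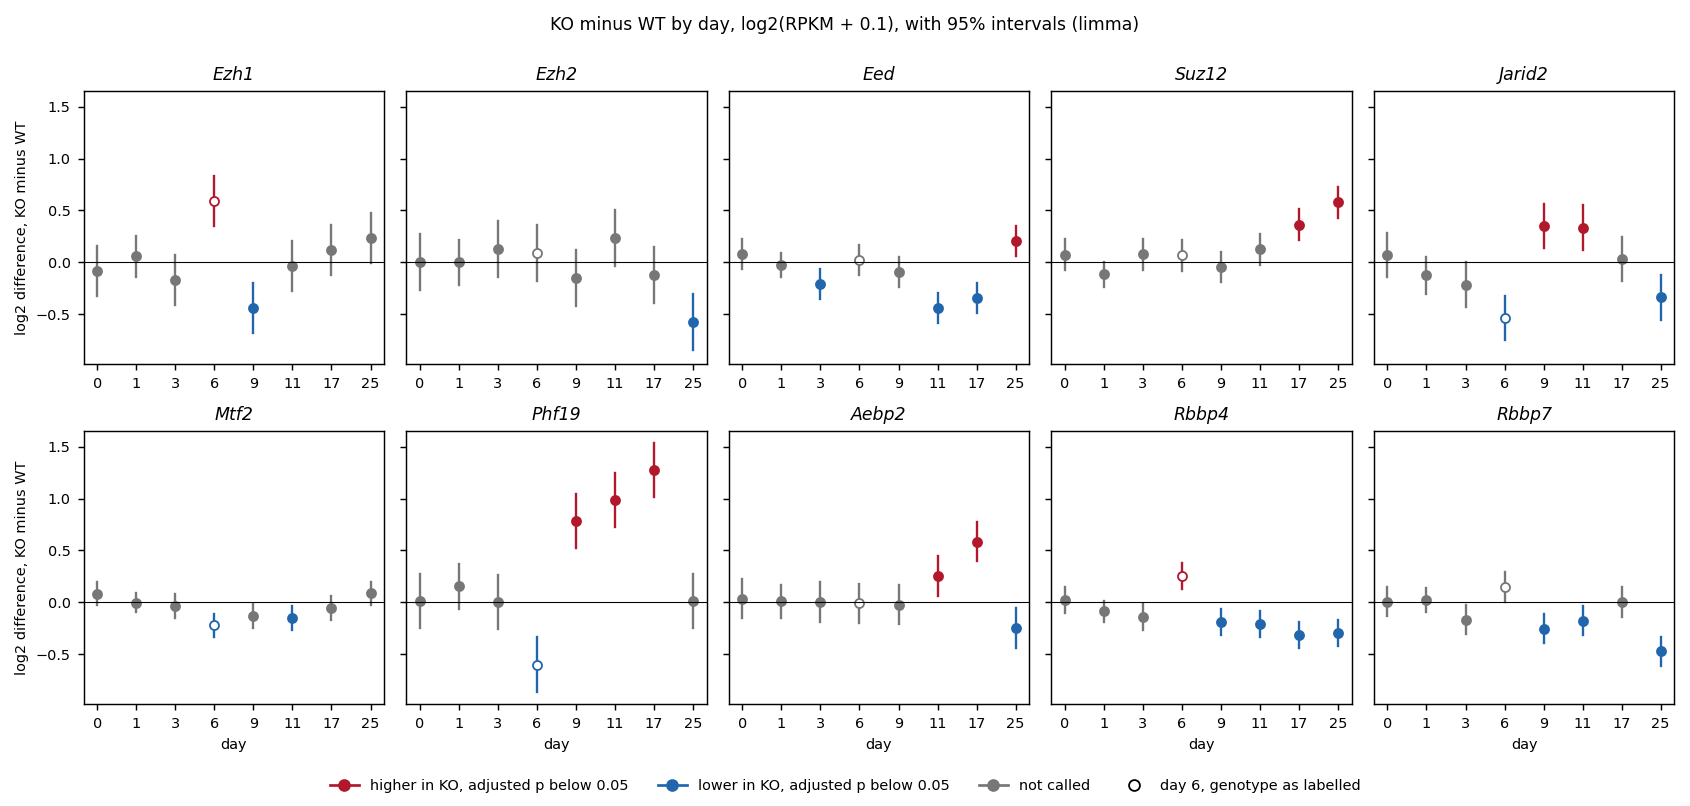
Log2 difference between KO and WT (vertical axes) of each PRC2 member by day (horizontal axes), with 95% intervals from limma on log2(RPKM + 0.1). Red and blue mark members called higher and lower in KO, grey those not called, and open circles day 6 as labelled; Phf19 reaches 1.27 at day 17 and is at 0.01 at day 25, while Rbbp4 is between -0.19 and -0.31 from day 9 on.

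Of the catalytic genes, Ezh2 fell at day 25. It had 12.3 and 12.7 RPKM in WT and 7.84 and 8.91 RPKM in KO, and the groups did not overlap. The log2 difference was -0.57 (SE 0.13, adjusted p 0.000611), to 0.673 of the WT level. At day 17 WT had 7.77 and 9.37 RPKM and KO 7.20 and 8.57 RPKM. Ezh2 in WT thus stood higher at day 25 than at day 17, while its KO libraries of both days overlapped. At days 3, 9, 11 and 17 its log2 differences of 0.13, -0.16, 0.23 and -0.12 passed no test, with 95% intervals that reached from -0.43 (day 9) to 0.50 (day 11). Without the first KO library of day 11 the difference of that day was 0.47 (adjusted p 0.00573), and with libraries centred on their medians that of day 17 was -0.30 (0.0496). In bulk RNA, fewer cells of a type and less RNA per cell cannot be told apart. Exons of Ezh2 overlap Gm17629 on the opposite strand, and since the strand setting of the counting is not given in the sources used here, their reads cannot be told apart.

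Ezh1, the paralog known from cells that divide little, fell at day 9. It had 1.91 and 1.92 RPKM in WT and 1.35 and 1.43 RPKM in KO (log2 difference -0.44, SE 0.12, adjusted p 0.00715; 0.0678 without the first KO library). At day 25 it had 1.37 and 1.66 RPKM in WT and 1.73 and 1.87 RPKM in KO, a log2 difference of 0.24 that passed no test (adjusted p 0.0781; 0.0279 without the first WT library, and 0.0339 and 0.0341 without either KO library of day 11).

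The balance of both catalytic genes at day 25 differed between genotypes. The RPKM ratio of Ezh2 to Ezh1 was 7.62 and 8.94 in WT and 4.53 and 4.76 in KO. At day 17 it was 5.30 and 5.70 in WT and 4.60 and 4.66 in KO. The KO libraries lay below WT at both days, while at day 11 they lay above it, at 3.75 and 3.86 against 3.03 and 3.29. From day 11 to day 25 the WT ratio stood higher at each day. The ratios were not tested.

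**Figure D3:**
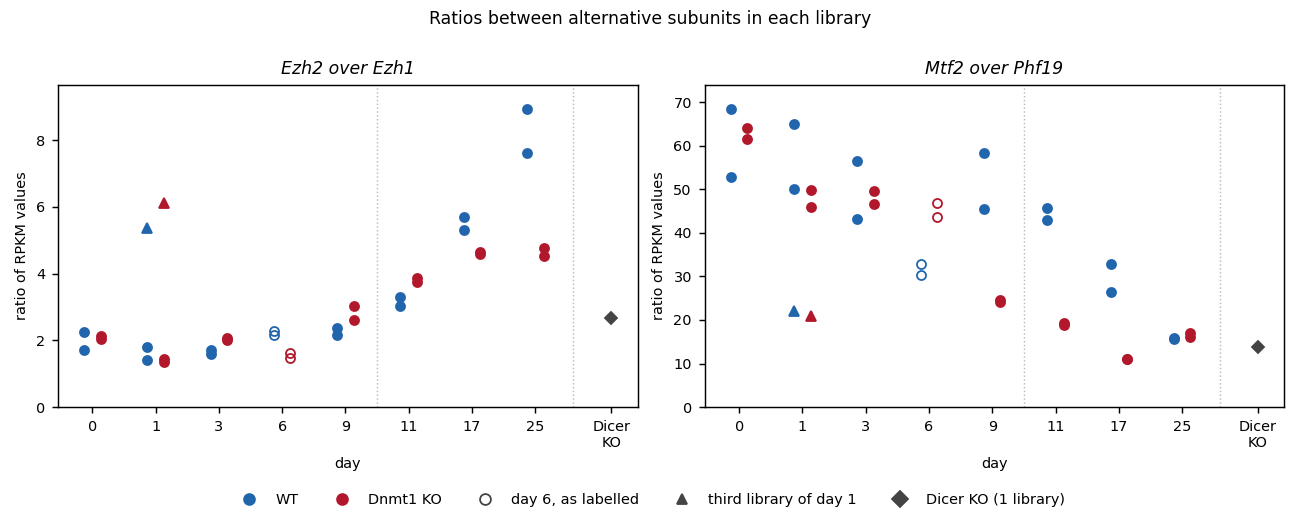
RPKM ratios of Ezh2 to Ezh1 and of Mtf2 to Phf19 (vertical axes) in each library by day (horizontal axes), with colours, symbols and dotted lines as in the plot of RPKM by library. At day 25 Ezh2 over Ezh1 is 7.62 and 8.94 in WT and 4.53 and 4.76 in KO, and at day 17 Mtf2 over Phf19 is 26.5 and 32.8 in WT and 11.08 and 11.09 in KO.

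Of the core genes, Suz12 was higher in KO than in WT at days 17 and 25. It had 30.1 and 33.9 RPKM in WT and 40.9 and 41.2 RPKM in KO at day 17 (log2 difference 0.36, SE 0.07, adjusted p 0.000317). At day 25 it had 32.6 and 32.7 RPKM in WT and 48.5 and 48.9 RPKM in KO (0.58, SE 0.07, adjusted p 6.14e-07), 1.49 times the WT level. The groups did not overlap at either day. At days 3, 9 and 11 its log2 differences of 0.08, -0.05 and 0.13 passed no test. At day 11 it had 39.2 and 43.2 RPKM in WT and 44.88 and 44.95 RPKM in KO. WT thus stood lower at days 17 and 25 than at day 11, while KO stood lower at day 17 and higher at day 25. Exons of Suz12 overlap Gm16706 on the opposite strand.

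Eed, whose protein binds the methyl mark, fell in KO at days 3, 11 and 17 and rose at day 25. At days 0, 1 and 9 its log2 differences of 0.08, -0.03 and -0.09 passed no test, though at day 0 both KO libraries (19.1 and 19.8 RPKM) lay above WT (18.09 and 18.6 RPKM). At day 3 it had 16.3 and 17.07 RPKM in WT and 14.3 and 14.4 RPKM in KO (log2 difference -0.21, adjusted p 0.0495), and that call was lost in 26 of the fits that left out a library. At day 11 it had 47.8 and 50.03 RPKM in WT and 34.5 and 37.6 RPKM in KO (-0.44, SE 0.07, adjusted p 3.72e-05; 0.177 when only the groups compared were fitted). At day 17 it had 53.9 and 58.6 RPKM in WT and 43.2 and 45.5 RPKM in KO (-0.34, SE 0.07, adjusted p 0.000369). All KO libraries lay below WT at days 3, 9, 11 and 17. At day 25 they lay above it, at 48.7 and 49.9 RPKM against 41.7 and 43.7 RPKM (0.21, adjusted p 0.0115). That rise was 0.06 with limma voom on recovered reads (adjusted p 0.356), and it was lost without the first WT library (0.0924) or the second KO library (0.0649).

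Both histone chaperone genes were lower in KO at several days. Rbbp4 fell by 0.19 at day 9, 0.21 at day 11, 0.31 at day 17 and 0.30 at day 25 on the log2 scale. At day 17 it had 32.97 and 35.8 RPKM in WT and 27.4 and 27.8 RPKM in KO (SE 0.06, adjusted p 0.000236), and at day 25 30.9 and 32.3 RPKM in WT and 25.4 and 25.97 RPKM in KO (adjusted p 0.00022). The groups did not overlap at these 4 days. In the mean of days 3, 9, 11, 17 and 25 Rbbp4 fell by 0.23 (SE 0.03, adjusted p 2.17e-07). The day 9 call was lost without the first WT library or either KO library (adjusted p 0.189, 0.0637 and 0.15), and the day 11 call without the first WT or the second KO library (0.0706 and 0.166).

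Rbbp7, the member with the highest level per length in WT at days 9 and 25, fell at day 25 from 50.4 and 53.3 RPKM in WT to 36.2 and 38.4 RPKM in KO (log2 difference -0.47, SE 0.07, adjusted p 4.47e-06). It fell by 0.25 at day 9 (adjusted p 0.00839; 0.0607 without the first WT and 0.0537 without the second KO library) and by 0.18 at day 11 (0.0499; lost in 28 of the fits that left out a library). At day 17 the groups overlapped, at 47.9 and 51.6 RPKM in WT and 49.8 and 49.98 RPKM in KO (0.00), while with libraries centred on their medians the difference was -0.18 (adjusted p 0.043). Exons of Rbbp4 overlap Gm17525 and Sync, and those of Rbbp7 overlap Txlng, on the opposite strand.

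Phf19, a Polycomb-like subunit of PRC2.1, had the largest change of any member. At day 9 it had 0.310 and 0.379 RPKM in WT and 0.648 and 0.677 RPKM in KO (log2 difference 0.78, SE 0.13, adjusted p 7.8e-05). At day 11 it had 0.831 and 0.887 RPKM in WT and 1.76 and 1.84 RPKM in KO (0.99, adjusted p 2.77e-06; 0.0646 when only the groups compared were fitted). At day 17 it had 0.939 and 1.05 RPKM in WT and 2.47 and 2.61 RPKM in KO (1.27, SE 0.13, adjusted p 3.69e-08). This is 2.42 times the WT level with 0.1 added to each RPKM, and without it mean RPKM was 0.993 in WT and 2.54 in KO. Every KO library stood above every WT library at these 3 days. At day 25 the groups overlapped, at 1.37 and 1.38 RPKM in WT and 1.33 and 1.45 RPKM in KO (0.01, 95% interval -0.25 to 0.28). WT stood higher and KO lower than at day 17. At day 3 the groups overlapped as well (0.00).

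Mtf2, the abundant Polycomb-like gene of ESCs, had log2 differences between -0.15 and 0.09 at days other than 6. Only day 11 was called, at 38.0 and 38.1 RPKM in WT and 33.2 and 35.3 RPKM in KO (-0.15, adjusted p 0.0342). That call was lost without either WT library (0.114 and 0.103) or the second KO library (0.187) and when only the groups compared were fitted (0.569). With libraries centred on their medians Mtf2 was lower in KO at day 9 (-0.17, adjusted p 0.0281) and day 17 (-0.24, 0.00191). The RPKM ratio of Mtf2 to Phf19 was 45.5 and 58.3 in WT and 24.1 and 24.5 in KO at day 9. At day 25 it was 15.7 and 15.9 in WT and 16.1 and 17.07 in KO. Exons of Mtf2 overlap Tmed5 on the opposite strand.

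The PRC2.2 genes changed in opposite directions at different days. Aebp2, a zinc finger subunit that stimulates the enzyme, had 3.30 and 3.71 RPKM in WT and 5.17 and 5.42 RPKM in KO at day 17 (log2 difference 0.58, SE 0.09, adjusted p 2.18e-05). At day 25 KO lay below WT, at 4.09 and 4.11 RPKM against 4.74 and 5.03 RPKM (-0.25, adjusted p 0.022). This second call was lost without the first WT library (0.132) or either KO library (0.0751 and 0.0657).

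Jarid2, which helps to bring PRC2 to chromatin, rose at day 9 and fell at day 25. At day 9 it had 8.43 and 9.39 RPKM in WT and 10.8 and 12.05 RPKM in KO (log2 difference 0.35, SE 0.10, adjusted p 0.0141). At day 25 it had 35.3 and 37.0 RPKM in WT and 28.3 and 28.9 RPKM in KO (-0.34, SE 0.10, adjusted p 0.00688). At day 17 the groups overlapped, at 25.6 and 28.7 RPKM in WT and 27.2 and 28.1 RPKM in KO (0.03). Both WT libraries of day 25 lay above those of day 17, while KO was between 27.2 and 28.9 RPKM at both days. The day 9 call was lost without the first KO or the second WT library (adjusted p 0.16 each), and the day 25 call without the first WT library (0.0522). At day 11 Jarid2 rose by 0.34 and Aebp2 by 0.25 (adjusted p 0.015 and 0.0349). Both were lost without the first WT library (0.129 and 0.134) or the second KO library (0.318 and 0.666), Aebp2 also without the second WT library (0.091). With libraries centred on their medians they were 0.22 and 0.14 (adjusted p 0.0771 and 0.212). When only the groups compared were fitted no member was called at day 11, Jarid2, Aebp2, Rbbp4 and Rbbp7 having adjusted p of 0.357, 0.501, 0.457 and 0.569.

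The change of the difference between days was tested as well. Between days 17 and 25, 1 member moved up and 5 moved down, with 54.4% of all genes called. Between days 9 and 25, which cross the sets, 4 moved up and 2 down, with 48.2% called.

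Between the libraries as labelled at day 6, 2 members were higher in those labelled KO and 3 lower, against 8.61% and 18.5% of all genes. Phf19 had 0.523 and 0.576 RPKM in the libraries labelled WT and 0.320 and 0.337 RPKM in those labelled KO (log2 difference -0.60, adjusted p 0.00109). Jarid2 had 8.53 and 8.57 RPKM in those labelled WT and 5.81 and 5.90 RPKM in those labelled KO (-0.54, adjusted p 0.000455). Ezh1 was higher by 0.59 in those labelled KO (adjusted p 0.000599). Rbbp4 was higher there by 0.26 (0.00305) and Mtf2 lower, at -0.22 (adjusted p 0.00373; 0.0572 with libraries centred on their medians). For Phf19, Jarid2, Ezh1 and Rbbp4 these signs are opposite to those of KO minus WT at day 9, as is that of Dnmt1, while for Mtf2 the sign is the same (-0.13 at day 9, which passed no test).

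Members also differed between days in WT, where time in culture and other differences between the libraries of these days cannot be told apart. From day 11 to day 25, both of high exon share, 4 members rose and 4 fell, against 34.7% and 33.2% of all genes. Jarid2 rose by 0.95 on the log2 scale (SE 0.10, adjusted p 4.88e-08), from 17.9 and 19.4 RPKM to 35.3 and 37.0 RPKM. Mtf2 fell by 0.80 (SE 0.05, adjusted p 3.6e-11), from 38.0 and 38.1 RPKM to 21.7 and 21.8 RPKM. Ezh2 rose by 0.65, Phf19 by 0.62 and Aebp2 by 0.37, while Ezh1 fell by 0.69, Suz12 by 0.33 and Eed by 0.20, the last call being lost without the second WT library of day 11 or the first of day 25. Rbbp4 (0.12) and Rbbp7 (0.01) passed no test. In the same comparison 1 of 10 ESC markers rose and 6 fell, Nanog by 2.32 and Dppa5a by 1.51, and 5 of 10 fibroblast markers rose and 1 fell. The summed RPKM of all 15 fibroblast markers was only 5.45 to 6.12 at day 11 and 11.7 to 12.4 at day 25. Of the 15, 12 were below 1 RPKM in both WT libraries of day 11 and 13 in both of day 25. WT Dnmt1 was at 14.06 and 14.07 RPKM at day 11 and at 31.6 and 34.8 RPKM at day 25. Their part in the changes of the members was not tested. Without the term for the third day 1 pair only Ezh1 (adjusted p 0.00115) and Mtf2 (0.0297) were called. From day 0 to day 9, both of low exon share, Suz12 rose by 0.36 (adjusted p 0.00241) and no other member was called, where 7.75% of all genes rose and 7.26% fell.

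Further genes that join or oppose PRC2 came from lists chosen by function. Of 4 other accessory genes, 2 rose at days 9 and 11 and 3 at day 17, against 16.7%, 22.7% and 28.9% of all genes, and none fell at these days. These counts include AU022751, which entered the tests only through its high values in KO at day 25. E130012A19Rik was the other gene that rose at days 9 and 11. At day 25 E130012A19Rik rose, against 39.4%, and AU022751 is not counted for the reason given with its values. E130012A19Rik, the table's symbol for Epop, a PRC2.1 subunit that links the complex to Elongin, had 4.33 and 4.39 RPKM in WT and 6.70 and 7.22 RPKM in KO at day 9 (log2 difference 0.66, adjusted p 0.000801). At day 25 it had 32.1 and 33.1 RPKM in WT and 56.6 and 57.9 RPKM in KO (0.81, SE 0.13, adjusted p 2.03e-05). No KO library overlapped WT at either day, and without the term for the third day 1 pair neither day was called (1 and 0.449). AU022751, the table's symbol for Ezhip, whose protein inhibits EZH2, was higher in KO by 1.28 at day 9, 1.59 at day 11 and 1.77 at day 17 (adjusted p 0.000667, 4.74e-05 and 6.86e-06). At day 17 it had 0.0762 and 0.0767 RPKM in WT and 0.455 and 0.550 RPKM in KO. It rested on 3 to 115 reads in a library and passed the filter only through the 2 KO libraries of day 25, so that a difference at that day was built in and no test of it is given. Such entry also favours genes that are high in KO at other days, which the adjusted p-values do not allow for. Without the term the call of day 9 was lost (0.0889), and with only the groups compared that of day 11 (0.0985).

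PRC1, the partner complex that ubiquitinates histone H2A, had 19 of 23 listed genes tested. At day 9 3 rose and 3 fell, against 16.7% and 10.5% of all genes, at day 17 6 rose and 3 fell, against 28.9% and 11.4%, and at day 25 3 rose and 11 fell, at a median of -0.50 against 0.13 over all genes, of which 39.4% rose and 25.9% fell. Pcgf2, a partner of the RING ubiquitin ligases, had 5.38 and 6.02 RPKM in WT and 1.57 and 1.67 RPKM in KO at day 25 (log2 difference -1.75, adjusted p 1.4e-06). Its WT level at day 17 was 1.41 and 1.89 RPKM, close to that of KO at day 25. Cbx6 (-1.23), Phc1 (-1.01) and Kdm2b (-0.998), which brings PRC1 to CpG islands, also fell at day 25. In WT from day 11 to day 25, 12 of the 19 PRC1 genes rose and 5 fell, against 34.7% and 33.2% of all genes. Pcgf2 rose by 1.48, Kdm2b by 1.27, Cbx6 by 1.01 and Phc1 by 0.61 in that comparison. Bmi1, a paralog of Pcgf2, rose at day 9 (1.36, adjusted p 4.96e-07) and at day 17 (1.44, 8.16e-08), from 1.01 and 1.07 RPKM in WT to 2.86 and 3.13 RPKM in KO at day 17.

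Of 6 genes whose products remove Polycomb marks, none was called at day 9, and 2 rose and 3 fell at day 25, against 39.4% and 25.9% of all genes. Kdm6b, a demethylase of the PRC2 mark, had 2.00 and 2.39 RPKM in WT and 0.328 and 0.454 RPKM in KO at day 25 (log2 difference -2.23, adjusted p 8.68e-06). Asxl1, a partner of the deubiquitinase BAP1, fell by 1.16 (adjusted p 1.56e-05). Of 14 genes from other complexes that hold RBBP4 or RBBP7, 6 rose and 8 fell at day 25, against the same shares, among them Mta1 (-2.04), Gatad2b (-1.37), Chd4 (-1.08) and Mta3 (0.87) of the NuRD complex. In WT from day 11 to day 25, 34.7% of all genes rose and 33.2% fell. Of the 6 genes 5 rose and 1 fell, and of the 14 genes 8 rose and 4 fell. Kdm6b rose by 1.56 there, Asxl1 by 1.42, Mta1 by 1.29, Gatad2b by 1.83 and Chd4 by 1.37, and Mta3 moved by -0.25. Of 20 developmental targets of PRC2 in the table only 6 passed the filter, so no count over them is given. They were called in both directions. Olig2, a transcription factor of neural progenitors, had 4.74 and 4.76 RPKM in WT and 2.67 and 2.86 RPKM in KO at day 9 (log2 difference -0.76, adjusted p 3.32e-06), and 9.82 and 10.3 RPKM in WT and 4.55 and 5.36 RPKM in KO at day 17 (-1.01, adjusted p 1.93e-08). Gata6 was higher in KO at day 9 (0.96) and Eomes at day 17 (0.60), while Hand1 passed the filter only through the KO libraries of day 17. Cdkn2a, an inhibitor of the cell cycle, had 0.738 and 1.02 RPKM in WT and 2.50 and 2.59 RPKM in KO at day 9 (1.45, adjusted p 0.000114), and 0.606 and 1.18 RPKM in WT and 4.17 and 4.39 RPKM in KO at day 17 (2.21, adjusted p 1.7e-07).

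**Figure D4:**
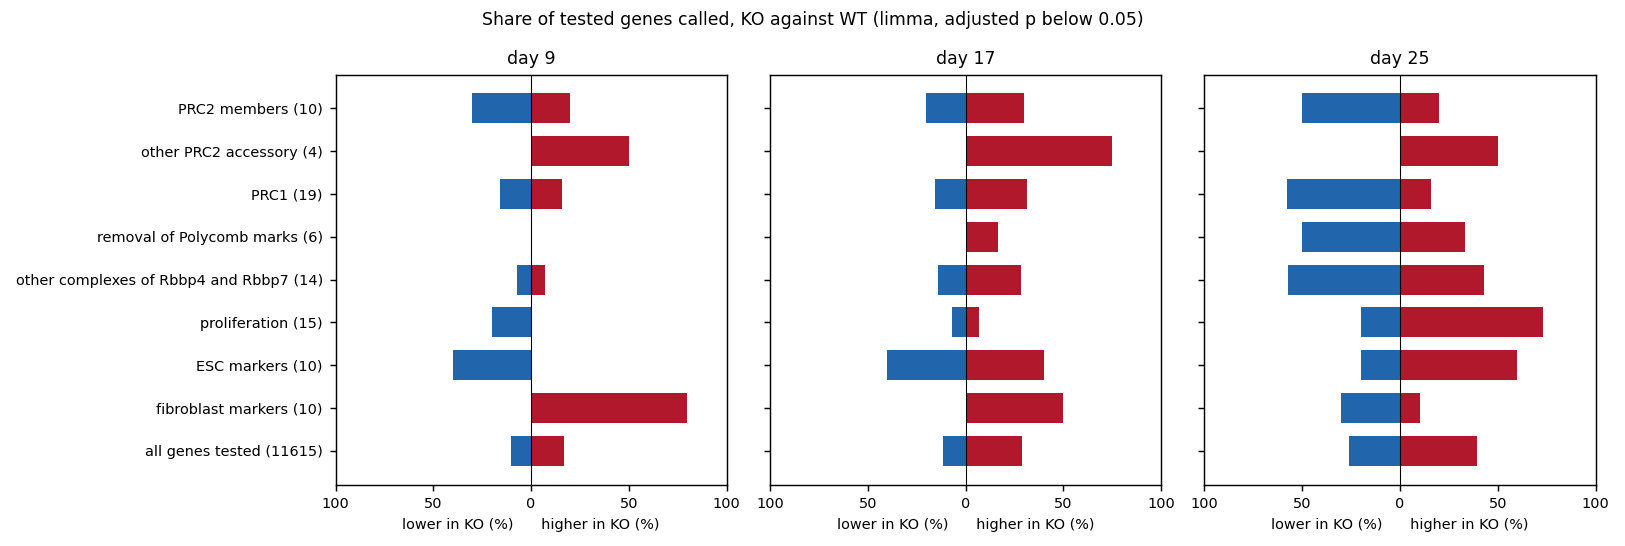
Share of the tested genes of each list called higher (red) and lower (blue) in KO at days 9, 17 and 25, in percent, with all genes tested as the last bar. PRC2 members are called in both directions at each of these days, and at day 25 PRC1 has 11 of 19 genes lower, against 25.9% of all genes. Of the 2 other accessory genes called at day 25, 1 is AU022751, whose difference there was built in. AU022751 is also among those called at days 9 and 17.

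Marker genes moved with genotype too. At day 25, where Ezh2 and Rbbp7 were lower and Suz12 higher in KO, 11 of 15 proliferation genes rose and 3 fell (median 0.44), against 39.4% and 25.9% of all genes, with a summed RPKM of 693 to 716 in WT and 956 to 978 in KO. At that day 6 of 10 ESC markers rose and 2 fell, against the same shares. At day 17, where Phf19 and Aebp2 were higher in KO, 1 proliferation gene rose and 1 fell, 4 of 10 ESC markers rose and 4 fell, and 5 of 10 fibroblast markers tested rose and none fell, against 28.9% and 11.4% of all genes. The summed RPKM of all 15 fibroblast markers was 7.77 to 8.75 in WT and 38.5 to 39.7 in KO at day 17, with 12 of 15 below 1 RPKM in both KO libraries. At day 9 8 of 10 rose (22.5 to 26.0 in WT and 47.4 to 53.9 in KO), no ESC marker or proliferation gene rose, and 4 of 10 ESC markers and 3 of 15 proliferation genes fell, against 16.7% and 10.5% of all genes. At day 25 1 fibroblast marker rose and 3 fell (11.7 to 12.4 and 7.44 to 8.22). Their part in the PRC2 results was not tested.

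The Dicer KO library had no replicate and was set, with no test, beside the 7 WT libraries of high exon share. Mtf2 had 13.7 RPKM, against a lowest of 21.7, a median of 29.8 and a highest of 38.1 RPKM in WT. The log2 difference from the median was -1.12, and Mtf2 was the only member more than 1 log2 unit away, as were 25.5% of all genes (15.9% higher and 9.63% lower). Rbbp4 (18.3 RPKM, against 28.7 to 35.8 in WT), Ezh2 (6.25, against 7.47 to 12.7), Eed (34.1, against 41.7 to 68.6) and Suz12 (25.11, against 30.1 to 43.2) also lay below all 7, at log2 differences of -0.81, -0.58, -0.55 and -0.43. Aebp2 lay above all 7, at 6.73 RPKM against 3.30 to 5.03 RPKM (0.82). Ezh1, Jarid2, Phf19 and Rbbp7 lay within the WT range. Of all genes, 57.9% lay outside it, 30.9% above and 26.9% below. With libraries centred on their medians Jarid2, Phf19 and Rbbp7 also lay below all 7, the last with a turned sign (-0.20 in place of 0.03), as did 37.1% of all genes. Against WT of day 0 or all 17 WT libraries, which mix the sets, 2 members passed 1 log2 unit, as did 55.6% and 48.3% of all genes. Dicer1 itself was at 4.01 RPKM, against 3.90 to 8.57 RPKM in these WT libraries, so its RNA level does not mark the knockout. All 10 fibroblast markers tested were more than 1 log2 unit higher in this library (median 5.12), with a summed RPKM over 15 of 294 against 5.45 to 12.4 in WT at days 11, 17 and 25, and 15 proliferation genes had a median of -0.44. Of 10 ESC markers 2 were more than 1 log2 unit lower and none as much higher (median -0.07), with Lin28a at 0.443 RPKM, against 48.2 to 78.3 RPKM in WT at days 11, 17 and 25, and Utf1 at 7.14 RPKM, against 25.3 to 39.8 RPKM. Their part in the result was not tested.

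**Figure D5:**
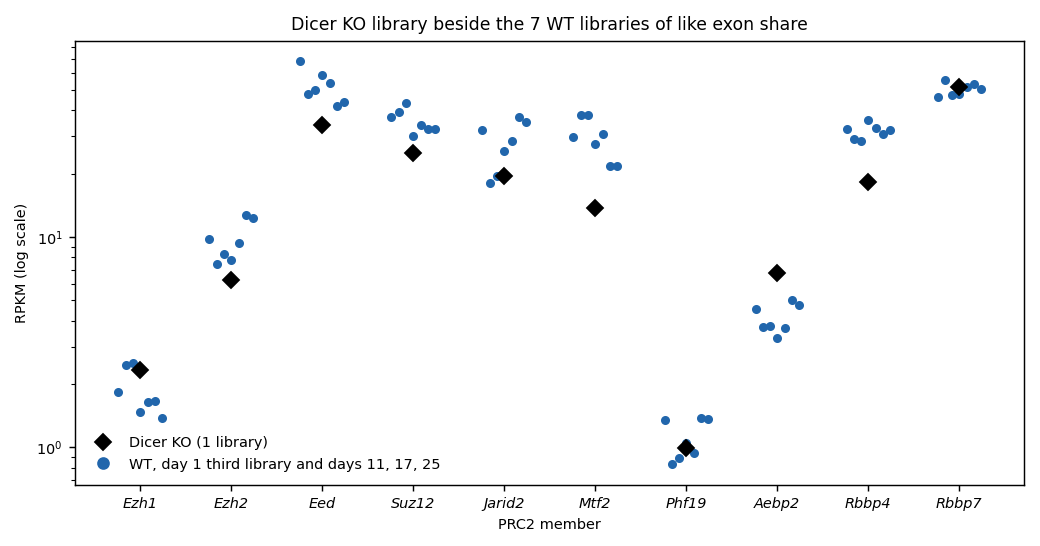
RPKM (vertical axis, log scale) of each PRC2 member (horizontal axis) in the Dicer KO library (diamonds) and in the 7 WT libraries of high exon share (circles). The Dicer KO library lies below all 7 for Mtf2, Rbbp4, Ezh2, Eed and Suz12 and above all 7 for Aebp2.

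The genes whose differences between KO and WT over the 8 days, day 6 as labelled, were most like those of Ezh2 were Arhgef7 (Pearson r 0.989), Syt11 (0.986), B230206F22Rik (0.986), Rasd2 (0.984) and Gm17400 (0.978). For Ezh1 they were Fsd1 (0.983), Dazap2 (0.976), Pigv (0.970), Gstm3 (0.965) and Mmab (0.965). These are the highest of 11615 genes over 8 points that share their libraries, given as a description. For Ezh1 the largest of the 8 differences was that of day 6 (0.59), and no ranking without that day was made. Other PRC2 members had r between -0.68 (Suz12) and 0.64 (Rbbp7) with Ezh2.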

How the data were processed

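Total RNA-seq of 35 mouse ESC libraries was analysed from a table of RPKM values that the authors deposited, linear and in 1 column per library, with 26127 gene rows. Per the study's methods and processing notes, reads were trimmed with Trim Galore 0.3.5 and mapped with TopHat2 2.0.11 to NCBIM37, alignments of low mapping quality were discarded, and values were quantified in SeqMonk. The methods name log2 RPM, but the deposited values are RPKM. All columns were mapped to a sample by name (0 left over). Low values were whole reads once multiplied by exon length and depth: 99.88% to 100% of those under 20 reads lay within 0.1 of a whole number, with exon lengths from the annotation for 99.9% of rows. Depth, 5.21 to 18.0 mega-reads in exons, limits Phf19 and AU022751 most.

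A gene entered the fit where 2 or more of the 34 WT and KO libraries exceeded an RPKM of 1 (11615 genes). It was made with limma 3.58.1 (R 4.3.3) on log2(RPKM + 0.1), with group means and a term for the third day 1 pair, a moderated variance with trend, and Benjamini-Hochberg adjustment. A fold change on this scale understates the change of low genes. The code was tested on simulated data. Contrasts were KO minus WT at each day, their mean without day 6, differences between days and WT over time. The boundary between the sets of libraries, 35% of reads in exons, was set after seeing the values. The text names all members, Dnmt1, Dicer1, up to 4 called genes per list and comparison by size, and the 5 genes most like Ezh2 and Ezh1. The members and lists were chosen with earlier results of these data known. Alternatives were another pseudocount, no filter, median centring, that term or the whole pair left out, only the groups compared, a replicate block, limma voom on recovered reads, and each library left out. Promoters were scanned with Python 3.11.15.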

Additional observations from a re-analysis of the deposited data

Results flagged for a closer look

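The difference between KO and WT changed for 6 of the 10 members in each of 2 comparisons of days by limma's test of the change itself, which is what marked these results. These counts are close to the share of all genes, 54.4% between days 17 and 25 and 48.2% between days 9 and 25. Between days 17 and 25, both of high exon share, the log2 difference moved by -1.26 for Phf19, -0.83 for Aebp2, -0.48 for Rbbp7, -0.45 for Ezh2, -0.37 for Jarid2 and 0.55 for Eed (adjusted p 8.29e-06, 2.3e-05, 0.000345, 0.0418, 0.0382 and 8.81e-05, in this order). The calls of Ezh2 and Jarid2 were lost under some settings, single libraries left out among them (adjusted p up to 0.2 and 0.269). Between days 9 and 25, which also differ in exon share, so that day and set cannot be told apart, it moved by 0.68 for Ezh1, 0.62 for Suz12, 0.30 for Eed, 0.22 for Mtf2, -0.77 for Phf19 and -0.69 for Jarid2 (adjusted p 0.00205, 5.33e-05, 0.0149, 0.0227, 0.00145 and 0.000672). Those of Eed and Mtf2 were lost under some settings (adjusted p up to 0.11 and 0.38). Without the term for the third day 1 pair none of these 12 results was called.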

How the results depend on the processing

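The term for the third day 1 pair decided most calls. Without it no member was called at days 3, 9, 11, 17 and 25, in the mean, in the differences between days or in WT from day 0 to 9 (0 higher and 0 lower), 1 was higher and 0 lower at day 6, and 0 higher and 2 lower in WT from day 11 to 25. All genes called then numbered 1 at day 1, 77 at day 3, 330 at day 6, 382 at day 9, 653 at day 11, 1204 at day 17, 2430 at day 25, 2196 in the mean, 842 and 1322 for day 25 against days 9 and 17, and 11 and 3332 in WT from day 0 to 9 and 11 to 25, in place of 17, 1301, 3143, 3160, 4066, 4671, 7591, 6719, 5600, 6320, 1743 and 7895. With the pair left out, 33 genes were called at day 1 and 1 member was lower in WT from day 0 to 9. With median centring, members called were 2 lower at day 3, 1 higher at day 11, 5 lower at day 17, 3 higher and 3 lower for day 25 against 17, and 1 lower in WT from day 0 to 9, and Rbbp7 at day 17 turned to -0.18. Centring moved the median of all genes from 0.07 to -0.05 at day 11, 0.09 to -0.09 at day 17, and -0.04 to 0.15 for day 25 against 17, and limma voom moved it from 0.13 to -0.01 at day 25, 0.07 to -0.07 for day 25 against 9, and -0.04 to -0.15 for day 25 against 17. The share of called genes that were higher moved from 82.4% to 69.2% at day 1, 66.0% to 49.96% at day 3, 31.8% to 50.3% at day 6, 61.4% to 49.7% at day 9, 64.8% to 41.9% at day 11, 71.8% to 40.6% at day 17, 64.7% to 45.3% in the mean, 46.3% to 62.4% for day 25 against 17, and 51.6% to 35.9% in WT from day 0 to 9. With limma voom it moved to 70.6% at day 1, from 60.3% to 47.6% at day 25 and from 55.4% to 42.0% for day 25 against 9, and members were 0 lower at day 3, 1 higher at day 25, 2 higher and 6 lower for day 25 against 9, and 1 lower in WT from day 0 to 9. With no filter, 0 were lower at day 3 and 3 lower for day 25 against 17, and 4 genes were called at day 1. With only the groups compared, members were 2 lower at day 3, 0 higher and 0 lower at day 11, 4 lower for day 25 against 9 and 2 higher in WT from day 0 to 9, and all genes called were 0 at day 1, 2153 at day 3, 311 at day 11 and 2872 at day 17. With a pseudocount of 1, no member was lower at day 3 (0), and 11 genes were called at day 1. Against WT of day 0 or all 17 WT libraries, 2 members of the Dicer KO library passed 1 log2 unit. The cause was not tested.

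Replicate numbers 1 and 2 did not pair the samples steadily: same-numbered WT and KO libraries had correlations of their deviations of -0.16 to 0.26, above 0.1 at 1 of 8 days. For genes with a mean above 5 RPKM they ran from -0.38 (day 17) to 0.38 (day 11). The third day 1 libraries were outside this check, and there both genotypes shifted by a median of 1.01 over all genes. With the replicate block, 0 members were lower at day 3 and 2 at day 11, and 2 genes were called at day 1.

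With each library left out in turn, members called higher and lower were 0 to 0 and 0 to 0 at days 0 and 1, 0 to 0 and 0 to 1 at day 3, 2 to 2 and 3 to 3 at day 6, 1 to 2 and 1 to 4 at day 9, 1 to 4 and 1 to 4 at day 11, 3 to 3 and 2 to 2 at day 17, 1 to 3 and 3 to 5 at day 25, 2 to 3 and 3 to 4 in the mean, 2 to 4 and 2 to 4 for day 25 against 9, 1 to 3 and 3 to 5 for day 25 against 17, 1 to 2 and 0 to 1 in WT from day 0 to 9, and 4 to 5 and 3 to 4 from day 11 to 25. All genes called were 0 to 0 at day 0, 2 to 46 at day 1 (fewest without the second WT library), 566 to 1815 at day 3 (second WT), 1856 to 3920 at day 6 (first labelled WT), 1721 to 3920 at day 9 (second WT), 2602 to 5325 at day 11 (first WT), 3549 to 5366 at day 17, 6429 to 7913 at day 25, 6348 to 7536 in the mean, 4703 to 6194 and 5166 to 6794 for the differences between days, and 298 to 2591 (fewest without the second WT library of day 9) and 6988 to 8265 in WT.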
